A study of Homo sapiens with 9 samples.

Results

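Potassium channel genes were followed in A549 cells, an established human lung adenocarcinoma cell line, after knockdown of the polyol pathway enzymes. The members are all protein-coding genes of the deposited count table whose symbol begins with KCN, without antisense RNAs and pseudogenes: 95 genes of 57905 gene IDs. They were grouped by channel class into 53 voltage-gated, 12 calcium-activated, 15 inward rectifier and 15 two-pore genes, each class with its auxiliary subunits. The sodium-activated KCNT and the pH-sensitive KCNU1 channels were counted with the calcium-activated class, whose structural family they share. Of the 95 genes, 44 passed the expression filter and were tested.

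The 9 poly(A) RNA libraries were 3 of control cells, titled plko and labelled as scrambled controls, 3 of cells with a short hairpin RNA against AKR1B1 (shAKR1B1, the aldose reductase that makes sorbitol from glucose) and 3 of cells with one against SORD (shSORD, the dehydrogenase that turns sorbitol into fructose). All groups are the same cell line in medium with 5% serum, and the control names do not settle whether that vector carried a scrambled hairpin. Each knockdown is 1 hairpin label against 1 control group, and nothing in the labels says whether the 3 libraries of a group came from separate transductions or cultures. The p-values therefore reflect only how far these libraries scatter, possibly for technical reasons, and both knockdown comparisons use the same control libraries.

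Potassium channels let potassium ions leave or enter the cell down their gradient and so set the membrane potential. Voltage-gated (Kv) channels open on depolarization, calcium-activated channels on a rise of cytosolic calcium, inward rectifiers (Kir) pass current best near the resting potential, and two-pore (K2P) channels carry the background leak. Auxiliary subunits do not form a pore by themselves but change the gating or surface delivery of pore-forming partners. In airway epithelium basolateral potassium channels maintain the driving force for chloride and fluid secretion, and in tumour cells several of these channels have been linked to volume regulation, division and migration.

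Total counts per library ranged from 32436524 to 43044456, and the potassium channel genes together took 7196 to 9420 of them. Values are counts per 1e+06 reads (CPM), scaled for library composition. AKR1B1 was at 1456, 1395 and 1397 CPM in control libraries and at 145.9, 148.3 and 167.3 CPM with shAKR1B1, and SORD was at 44.1, 43.04 and 41.7 CPM in control libraries and at 8.68, 8.997 and 8.18 CPM with shSORD, so both targets were lower under their own hairpin. Each was also lower, by less, under the other hairpin: SORD fell 1.41-fold with shAKR1B1 (adjusted p = 6.43e-06) and AKR1B1 fell 1.33-fold with shSORD (adjusted p = 0.000131). The epithelial keratins KRT8 and KRT18 were abundant in every library and EPCAM was low, at 3.02 to 3.12 CPM in control libraries. The summed epithelial list, all 7 of whose genes were tested, was at 8700 to 8920 CPM in control, 12300 to 12900 CPM in shAKR1B1 and 10800 to 12800 CPM in shSORD libraries. Within it EPCAM rose 3.43-fold and 5.11-fold, KRT19 2.3-fold and 2.7-fold, CDH1 2.13-fold and 2.21-fold, KRT18 1.83-fold and 1.58-fold and KRT8 1.57-fold and 1.37-fold, while KRT7 fell 1.69-fold and 1.16-fold. CDH2 was on this list too, although N-cadherin, which it encodes, is usually taken as a mesenchymal and not an epithelial marker. CDH2 fell 2.15-fold with shAKR1B1 and rose 1.47-fold with shSORD, and with means of 17.75, 8.249 and 26.16 CPM it made little of the sum. Of 4 alveolar type 2 markers, SFTPB had no count and SFTPC at most 15 counts in a library. Of 6 neuron markers, SNAP25, SYT1 and RBFOX3 were measured and GAP43 had no count. The summed neuron list stood at 45 to 46.4 CPM in control, 65.9 to 75.2 CPM in shAKR1B1 and 41.5 to 53.2 CPM in shSORD libraries. With shAKR1B1 SNAP25 rose 1.7-fold and SYT1 2.1-fold, while RBFOX3 did not pass. With shSORD SYT1 rose 1.78-fold and RBFOX3 fell 2.24-fold, while SNAP25 did not pass. The summed fibroblast list, of which 4 of 5 genes were tested, was at 15.6 to 17.5, 8.84 to 10.3 and 33.5 to 48.8 CPM, and DCN had at most 4 counts. COL1A1 made most of that sum, with means of 14.99, 8.92 and 36.38 CPM, a fall of 1.68-fold and a rise of 2.43-fold. THY1 fell 3.49-fold with shAKR1B1 and did not pass with shSORD. PDGFRB did not pass with shAKR1B1 and rose 3.945-fold with shSORD. LUM, with at most 22 counts in a library, rose 10.9-fold and 22.6-fold. The leukocyte, endothelial and muscle lists summed to under 2 CPM in all libraries. The part of these shifts in the channel results was not tested, and in bulk RNA fewer cells of a type and less RNA per cell cannot be told apart.

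Knockdown of either enzyme was accompanied by changes of potassium channel transcripts in both directions. With shAKR1B1, 17 of the 44 tested genes rose and 16 fell (75% called, against 57.4% of all 16916 genes tested, of which 27.8% rose and 29.6% fell). At a change of 2-fold or more, 9 rose and 11 fell, 45.5% of the tested channel genes against 12.4% of all genes, of which 8.45% rose and 3.93% fell. With shSORD, 15 rose and 15 fell (68.2% against 56.5%, with 27.5% of all genes up and 29% down), and 5 rose and 6 fell at least 2-fold (25% against 11.1%, of which 8.02% rose and 3.1% fell). The median log2 fold change of the tested channel genes was -0.13 with shAKR1B1 and -0.02 with shSORD, and that of all genes tested was -0.0024 and -0.002. The 44 genes are those with enough counts in at least 1 group, not all members. Just inside the 2-fold line were KCNF1 with shAKR1B1 (log2 fold change -1.0021) and KCNIP2 with shSORD (1.00). Just outside it with shAKR1B1 were KCNIP3 (-0.99), KCNK1 (0.99) and KCNK6 (0.98).

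**Figure D1:**
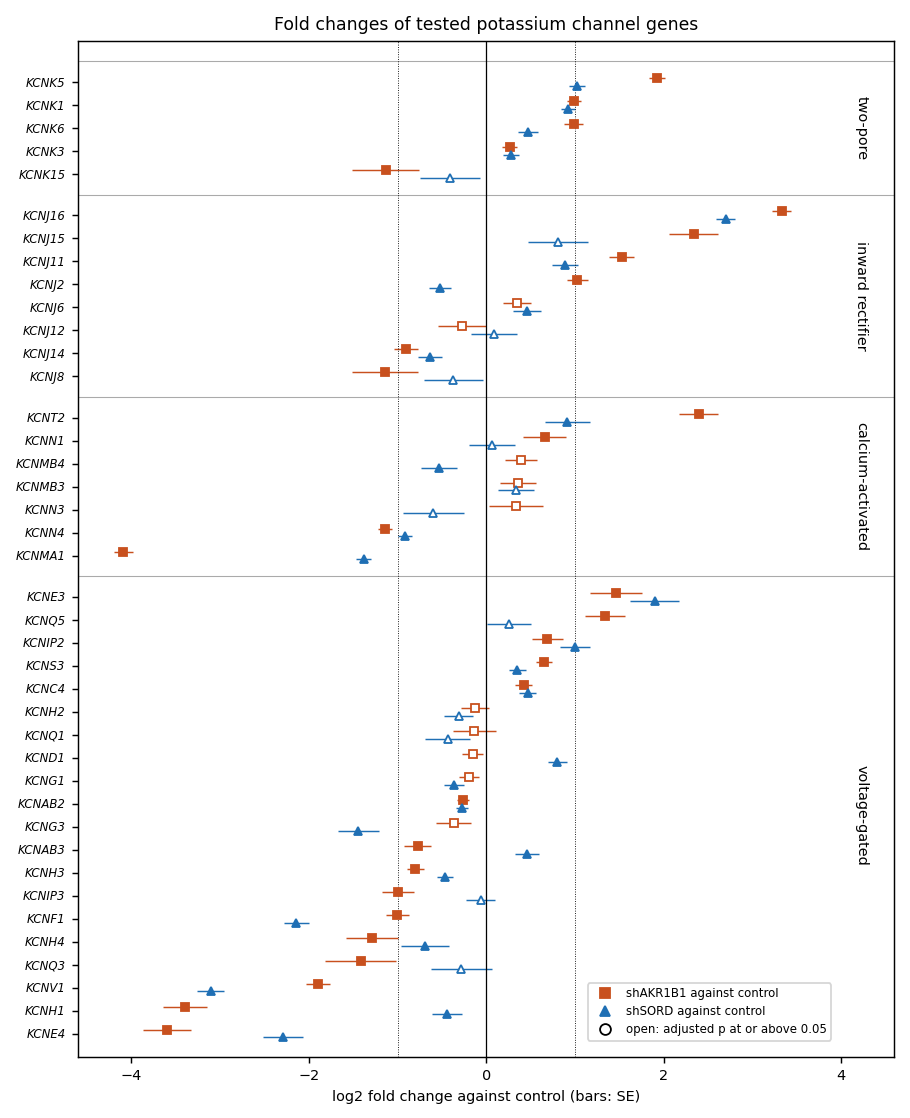
Log2 fold change against control (x axis, bars are SE) of tested potassium channel genes (y axis) by class, with squares for shAKR1B1, triangles for shSORD, filled symbols for adjusted p under 0.05 and dotted lines at 2-fold. KCNMA1, KCNE4 and KCNH1 lie farthest left and KCNJ16 farthest right with shAKR1B1.

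The classes shifted in weight. To add genes of different length, each CPM was divided by the gene's exon length in kilobases (CPM per kb). The calcium-activated class had the summed level 12.6 ± 0.252 CPM per kb in control cells (SD, n = 3), 6.13 ± 0.219 with shAKR1B1 and 6.798 ± 0.582 with shSORD. KCNN4 alone made 10.88 of that control level, 4.912 of the level with shAKR1B1 and 5.767 of that with shSORD, so the sum mainly follows this gene. The median log2 fold change of the 7 tested genes of the class was 0.36 with shAKR1B1 and -0.54 with shSORD. The two-pore class stood at 7.91 ± 0.35, 16.7 ± 0.352 and 13.2 ± 0.308 CPM per kb, and the inward rectifiers at 3.51 ± 0.263, 7.997 ± 0.291 and 4.88 ± 0.204. Of the two-pore levels KCNK1 made 3.454, 6.862 and 6.542 and KCNK5 1.666, 6.311 and 3.385, so that sum mainly follows these genes. Of the inward rectifier levels KCNJ16 made 0.2876, 2.892 and 1.867, KCNJ2 1.237, 2.525 and 0.8631, and KCNJ14 0.8715, 0.4664 and 0.5606. The inward rectifier sum thus does not stand for a common shift of its genes. Voltage-gated genes were at 17.4 ± 0.652, 14.04 ± 0.253 and 14.5 ± 0.48 CPM per kb. In all 4 classes the 3 libraries of each knockdown lay outside the range of the control libraries. The two-pore share of the summed channel level was thus 19.1% in control, 37.2% in shAKR1B1 and 33.5% in shSORD cells, and the calcium-activated share 30.4%, 13.7% and 17.3%. The sum over all 95 genes was 41.4 ± 1.17, 44.9 ± 0.287 and 39.4 ± 1.34 CPM per kb. These sums are descriptions without a test.

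**Figure D2:**
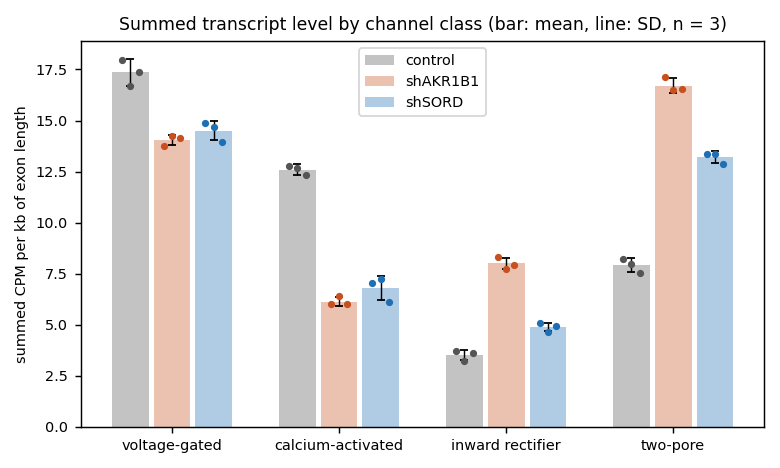
Summed CPM per kb of exon length (y axis) of each channel class (x axis) in control, shAKR1B1 and shSORD cells; bars are means, lines SD and points the 3 libraries of a group. Calcium-activated channels go from 12.6 in control to 6.13 and 6.798, and two-pore channels from 7.91 to 16.7 and 13.2.

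Per kilobase, the highest channel transcript of control cells was KCNN4, at 10.6 to 11.1 CPM per kb. It was followed by KCNK1 (3.35 to 3.57) and by KCNAB2 (2.79 to 2.99). The next, KCNS3 (2.15 to 2.73), KCNF1 (2.07 to 2.6) and KCNH3 (1.91 to 2.23), overlapped in their libraries. In shAKR1B1 cells KCNK1 (6.38 to 7.38) and KCNK5 (6.05 to 6.61) came first with overlapping ranges, ahead of KCNN4 (4.68 to 5.1). In shSORD cells KCNK1 (6.09 to 6.85) and KCNN4 (5.06 to 6.14) overlapped, ahead of KCNK5 (3.1 to 3.73). The order depends on the length used: with the longest coding transcript, KCNAB2 came before KCNK1 in control cells (6.49 against 5.798 CPM per kb), KCNN4 before KCNK5 in shAKR1B1 cells (7.46 against 6.31), and KCNAB2 (5.352) and KCNS3 (3.917) before KCNK5 (3.384) in shSORD cells.

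Of the 51 genes below the filter, 14 had no count in any library: KCNA1, KCNA4, KCNA5, KCNA6, KCNA10, KCNB2, KCNS2, KCNV2, KCNIP1, KCNIP4, KCNMB1, KCNMB2, KCNK16 and KCNK18. A count of 0 allows a level of up to 0.0696 to 0.0919 CPM per library (3 counts, for counting error only). The other 37 had at most 18 counts in a library, the highest being KCNC1 (18), KCNRG (16), KCNK7 (12) and KCNN2 (10). KCNE5, KCNK2, KCNJ3, KCNJ5 and KCNU1 reached 8 or 9 counts, KCNA2 and KCNK13 6, KCNE1 5 and KCNK9 4. KCNH5, KCNH7, KCNJ1, KCNJ4, KCNJ13, KCNK4, KCNK10 and KCNK12 reached 3 counts, and KCNC2, KCNH6, KCNH8 and KCNJ10 reached 2. At most 1 count was seen of KCNA3, KCNA7, KCND2, KCND3, KCNG2, KCNG4, KCNS1, KCNAB1, KCNE2, KCNT1, KCNJ9 and KCNK17. The Kv1 (Shaker) pore genes, KCNA1 to KCNA10, were thus all below the filter. Some genes below it were called in alternative fits. KCNC1 was called with shAKR1B1 without an expression filter, and when control replicate 3 or any shAKR1B1 or shSORD replicate was left out. KCNJ3 was called with shAKR1B1 with DESeq2 and without a filter, and between the knockdowns without a filter.

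The proximal promoters of 4 genes are shown because these genes changed at least 2-fold in the same direction under each hairpin, by the largest amounts among those with a window in the RefSeq table used here. KCNMA1 and KCNF1 fell, and KCNJ16 and KCNE3 rose. Sequences run 5′ to 3′ from 250 bases before to 50 after the start in RefSeq (GRCh38.p14, a later build than that of the counts), and capitals mark every GC box (GGGCGG) or AP-1 motif (TGANTCA) on either strand, overlapping matches joined.
KCNMA1, chr10:77637759-77638058, minus strand, GC content 85.7%: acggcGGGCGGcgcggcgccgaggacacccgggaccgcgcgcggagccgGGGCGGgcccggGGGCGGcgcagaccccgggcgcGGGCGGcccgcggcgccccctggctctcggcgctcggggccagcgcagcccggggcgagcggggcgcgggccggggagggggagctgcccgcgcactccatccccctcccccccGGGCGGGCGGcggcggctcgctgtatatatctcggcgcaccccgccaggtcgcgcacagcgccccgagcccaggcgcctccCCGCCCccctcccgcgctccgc
KCNF1, chr2:10911684-10911983, plus strand, GC content 61.3%: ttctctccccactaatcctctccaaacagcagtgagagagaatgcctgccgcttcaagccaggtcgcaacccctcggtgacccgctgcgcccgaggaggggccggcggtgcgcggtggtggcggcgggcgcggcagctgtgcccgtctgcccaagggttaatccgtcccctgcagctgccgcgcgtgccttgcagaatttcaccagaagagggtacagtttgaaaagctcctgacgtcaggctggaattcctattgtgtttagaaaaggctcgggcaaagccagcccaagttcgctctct
KCNJ16, chr17:70074975-70075274, plus strand, GC content 47%: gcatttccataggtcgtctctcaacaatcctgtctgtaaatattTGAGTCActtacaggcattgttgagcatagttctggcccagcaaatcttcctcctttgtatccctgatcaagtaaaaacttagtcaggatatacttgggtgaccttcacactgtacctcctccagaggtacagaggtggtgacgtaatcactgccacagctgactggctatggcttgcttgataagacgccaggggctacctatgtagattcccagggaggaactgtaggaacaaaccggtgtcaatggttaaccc
KCNE3, chr11:74467500-74467799, minus strand, GC content 73.3%: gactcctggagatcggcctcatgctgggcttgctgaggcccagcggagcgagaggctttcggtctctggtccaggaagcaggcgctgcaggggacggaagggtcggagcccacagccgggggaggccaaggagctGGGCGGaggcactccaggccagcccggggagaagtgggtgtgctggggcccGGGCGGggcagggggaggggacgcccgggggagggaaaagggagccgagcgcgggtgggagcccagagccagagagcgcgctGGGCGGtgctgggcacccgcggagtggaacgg
The KCNMA1 window held 7 GC boxes and that of KCNE3 held 3, whereas the KCNJ16 window held 1 AP-1 motif and no GC box and that of KCNF1 neither. GC boxes occurred in 59.7% of 14988 windows of protein-coding genes and in 25 of the 29 windows found for tested channel genes (86.2%), whose median GC content was 69.7% against 63% for all. The AP-1 motif was in 5.7% of all windows and in 2 of the 29. An E-box (CACCTG) was in 19.7% of all and in 5 of the 29, a TATA motif (TATAAA) in 9.37% and in 3, and a forkhead motif (TGTTTAC) in 2.55% and in 0, each searched on both strands. None of these 3 occurs in the windows printed. A match describes letters and not a bound factor.

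Calcium-activated channels. KCNMA1, the pore subunit of the large-conductance BK channel, which opens on depolarization and calcium together, was the member with the largest change. It was at 35.7, 37.1 and 37 CPM in control libraries, 1.93, 2.07 and 2.39 CPM with shAKR1B1 and 12.3, 14.3 and 15.6 CPM with shSORD. The 3 groups did not overlap, and the gene fell 17.04-fold with shAKR1B1 (log2 fold change -4.09, SE 0.105, adjusted p = 6.66e-13) and 2.6-fold with shSORD (-1.38, SE 0.0834, adjusted p = 5.54e-09). It was 6.55-fold lower with shAKR1B1 than with shSORD (log2 fold change -2.71, adjusted p = 2.98e-10). The BK beta subunits, which set calcium sensitivity and inactivation, changed less. KCNMB4 was at 1.3 to 1.72 CPM in control, 1.53 to 2.27 CPM in shAKR1B1 and 0.932 to 1.18 CPM in shSORD libraries (log2 fold changes 0.39, adjusted p = 0.0835, and -0.54, a fall with adjusted p = 0.0346). KCNMB3 was at 0.689 to 1.29 CPM in all libraries and did not pass in either comparison (adjusted p = 0.14 and 0.177), and its exons overlap those of the abundant PIK3CA on the opposite strand. They also overlap on the same strand the pseudogene LRRFIP1P1, with 53 to 60 counts in control, 55 to 78 in shAKR1B1 and 67 to 78 in shSORD libraries. KCNMB3 had at most 53 counts, so it is uncertain. KCNMB1 and KCNMB2 had no counts, and the BK gamma subunits LRRC26, LRRC38, LRRC52 and LRRC55, which are not KCN genes, were below the filter with at most 17 counts.

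KCNN4, the intermediate-conductance IK channel of epithelia and lymphocytes, was at 37.8, 37.3 and 36.2 CPM in control libraries, 16, 17.4 and 16.9 CPM with shAKR1B1 and 20.8, 20.9 and 17.2 CPM with shSORD. All 6 knockdown libraries lay below the controls. It fell 2.21-fold with shAKR1B1 (log2 fold change -1.15, SE 0.0779, adjusted p = 1.31e-08) and 1.89-fold with shSORD (-0.91, SE 0.0768, adjusted p = 1.59e-07). The small-conductance SK genes were low: KCNN1 rose with shAKR1B1 from 0.585 ± 0.0957 to 0.932 ± 0.184 CPM (log2 fold change 0.66, adjusted p = 0.0297), and KCNN3 did not pass in either comparison with control (adjusted p = 0.363 and 0.157). The shAKR1B1 libraries of KCNN3 overlapped the controls, and its shSORD libraries lay below them. KCNT2, a sodium-activated channel of the same structural family, moved the other way from KCNMA1. It was at 0.414, 0.424 and 0.255 CPM in control libraries, 2.14, 1.9 and 1.74 CPM with shAKR1B1 and 0.647, 0.658 and 0.752 CPM with shSORD. The groups did not overlap, with rises of 5.25-fold (log2 fold change 2.39, SE 0.218, adjusted p = 2.85e-07) and 1.89-fold (0.91, SE 0.257, adjusted p = 0.00703) from 10 to 16 counts per control library. In the class, 2 of 7 tested genes rose and 2 fell with shAKR1B1, and 1 rose and 3 fell with shSORD. Among all genes tested, 27.8% rose and 29.6% fell with shAKR1B1, and 27.5% rose and 29% fell with shSORD. For KCNN1 the adjusted p was 0.103 or 0.0743 when control replicate 2 or 3 was dropped, 0.095 or 0.101 when shAKR1B1 replicate 1 or 2 was dropped, and 0.101 with DESeq2. The fall of KCNMB4 with shSORD was lost on dropping control replicate 2 or 3 (0.128 and 0.0793) or shSORD replicate 1 or 2 (0.116 and 0.0636), with DESeq2 (0.0834) and with upper-quartile scaling (0.0641). With shAKR1B1, KCNMB4 passed without shAKR1B1 replicate 3 (0.0174), with upper-quartile scaling (0.0496) and in a fit of the 2 groups alone (0.0482).

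**Figure D3:**
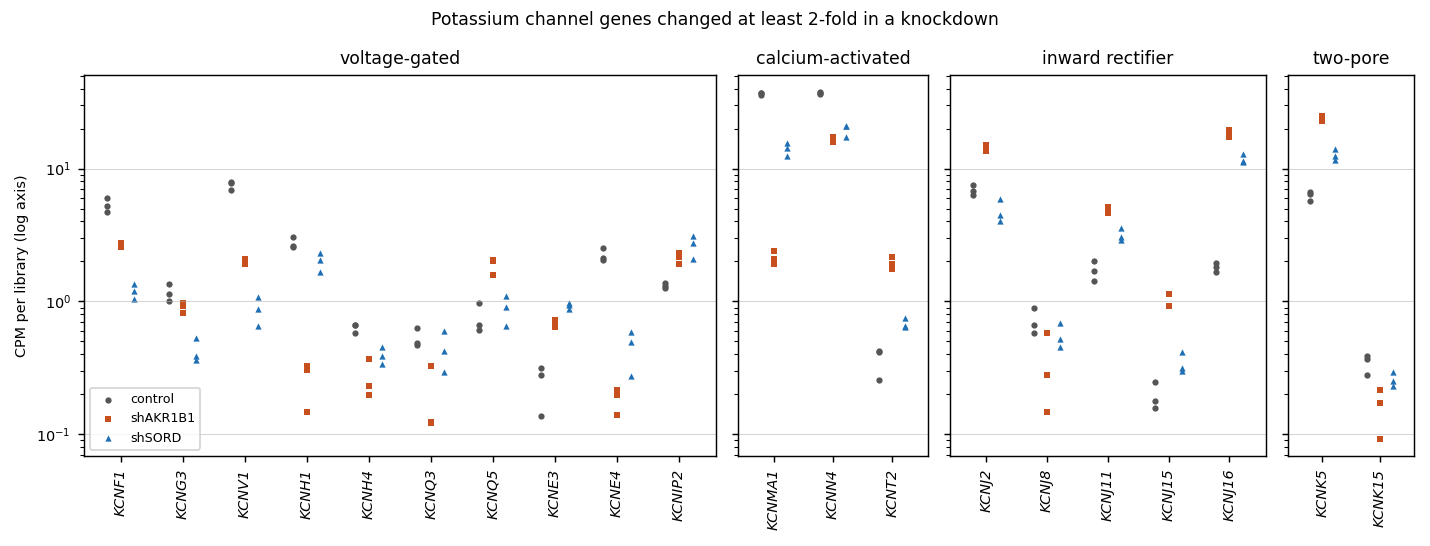
CPM in each library (y axis, log axis) of potassium channel genes that changed at least 2-fold in a knockdown (x axis, by class); circles are control, squares shAKR1B1 and triangles shSORD libraries. KCNMA1 goes from 35.7 to 37.1 CPM in control down to 1.93 to 2.39 CPM with shAKR1B1, while KCNJ16 goes from 1.68 to 1.96 up to 17.4 to 19.4 CPM.

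Inward rectifiers. With shAKR1B1, 4 of the 8 tested inward rectifier genes rose, each at least 2-fold, and 2 fell. With shSORD, 3 rose and 2 fell. Of all genes tested, 27.8% rose (8.45% at least 2-fold) and 29.6% fell with shAKR1B1, and 27.5% rose and 29% fell with shSORD. KCNJ16 encodes Kir5.1, which works mainly as a partner of Kir4.1 (KCNJ10) or Kir4.2 (KCNJ15) in transporting epithelia such as the kidney tubule. It was at 1.96, 1.83 and 1.68 CPM in control libraries, 19.4, 17.4 and 18.2 CPM with shAKR1B1 and 11.2, 11.4 and 12.9 CPM with shSORD. The groups did not overlap, and KCNJ16 rose 10.04-fold (log2 fold change 3.33, SE 0.104, adjusted p = 3.52e-12) and 6.49-fold (2.70, SE 0.107, adjusted p = 6.83e-11). Its partner KCNJ15 was at 0.248, 0.159 and 0.178 CPM in control libraries, 0.919, 1.14 and 0.928 CPM with shAKR1B1 and 0.414, 0.317 and 0.301 CPM with shSORD. All knockdown libraries lay above the controls, and KCNJ15 rose 5.06-fold with shAKR1B1 (log2 fold change 2.34, SE 0.279, adjusted p = 4.81e-06) from 6 to 9 counts per control library, so the size of that fold is uncertain. With shSORD its log2 fold change was 0.81 (adjusted p = 0.0529), and it passed without control replicate 1 (0.0469) and with upper-quartile scaling (0.0383). Exons of KCNJ15 overlap on the same strand those of DSCR8, so KCNJ15 is uncertain. DSCR8 had 1 to 5 counts in control, 3 to 6 in shAKR1B1 and 5 to 11 in shSORD libraries. The other partner, KCNJ10, had at most 2 counts.

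KCNJ11 encodes Kir6.2, the pore of the ATP-sensitive (KATP) channel that ties membrane potential to the energy state of the cell. It was at 2.02, 1.7 and 1.43 CPM in control libraries, 4.66, 4.96 and 5.13 CPM with shAKR1B1 and 3.57, 2.88 and 3.06 CPM with shSORD. No groups overlapped, and KCNJ11 rose 2.88-fold (log2 fold change 1.53, SE 0.141, adjusted p = 3.41e-07) and 1.85-fold (0.89, SE 0.148, adjusted p = 0.000126). ABCC8, the sulfonylurea receptor that assembles with Kir6.2 into the KATP channel of beta cells and is not a KCN gene, rose 1.74-fold from 5.05 ± 0.605 to 8.79 ± 0.506 CPM (adjusted p = 1.6e-05) and 1.36-fold to 6.86 ± 0.627 CPM (adjusted p = 0.00313). The second KATP pore, Kir6.1 (KCNJ8), known from blood vessels, was at 0.663, 0.583 and 0.891 CPM in control and 0.582, 0.148 and 0.278 CPM in shAKR1B1 libraries. The highest shAKR1B1 library and the lowest control were almost equal, and KCNJ8 fell 2.21-fold with shAKR1B1 (log2 fold change -1.15, SE 0.372, adjusted p = 0.0163), and stood at 0.451 to 0.683 CPM with shSORD (-0.37, adjusted p = 0.361). Dropping control replicate 3 ended the KCNJ8 call (adjusted p = 0.0813), as did dropping shAKR1B1 replicate 2 or 3 (0.0901 and 0.0616). Its receptor partner ABCC9 had at most 2 counts.

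KCNJ2, the strong rectifier Kir2.1 that stabilises the resting potential, moved in opposite directions under the 2 hairpins. It was at 7.57, 6.36 and 6.77 CPM in control libraries, 14.9, 13.5 and 13.8 CPM with shAKR1B1 and 5.91, 4.05 and 4.49 CPM with shSORD. The groups did not overlap, and it rose 2.04-fold with shAKR1B1 (log2 fold change 1.03, SE 0.115, adjusted p = 2.48e-06) and fell 1.44-fold with shSORD (-0.52, SE 0.126, adjusted p = 0.00259). The direct comparison gave 2.93-fold more with shAKR1B1 than with shSORD (log2 fold change 1.55, SE 0.119, adjusted p = 1.63e-07). Its antisense neighbour KCNJ2-AS1 had 45 to 56 counts in control, 86 to 104 in shAKR1B1 and 37 to 60 in shSORD libraries, fewer than KCNJ2, and the reads of the pair cannot be told apart if strand was not used in counting. KCNJ14 (Kir2.4) fell from 3.78 ± 0.507 CPM to 2.02 ± 0.17 with shAKR1B1 and 2.43 ± 0.165 with shSORD (log2 fold changes -0.90 and -0.64, adjusted p = 5.45e-05 and 0.000933). Its exons overlap on the same strand those of GRWD1, which had 4321 to 4688 counts in control, 1846 to 2699 in shAKR1B1 and 2169 to 2881 in shSORD libraries, so KCNJ14 is uncertain. KCNJ6, the G-protein-gated GIRK2, was at 2.25 ± 0.389, 2.87 ± 0.198 and 3.1 ± 0.449 CPM and passed with shSORD (log2 fold change 0.46, adjusted p = 0.0197) but not with shAKR1B1 (0.34, adjusted p = 0.0724). For KCNJ6 with shSORD the adjusted p was 0.0967 or 0.0635 on dropping control replicate 1 or 2, and 0.0553 on dropping shSORD replicate 3. With shAKR1B1 it passed without control replicate 3 (0.023) or shSORD replicate 3 (0.0466), with upper-quartile scaling (0.0363), with the stricter filter (0.0492) and in a fit of the 2 groups alone (0.0308). KCNJ12, whose reads can be shared with its near-identical copy KCNJ18, did not pass (adjusted p = 0.4 and 0.795).

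Two-pore channels. All 5 tested genes of the class were called with shAKR1B1, 4 of them higher, and 4 of 5 rose with shSORD. For comparison, 57.4% of all genes tested were called and 27.8% rose with shAKR1B1, and 27.5% rose with shSORD. KCNK5 (TASK-2), an alkaline-activated leak channel of epithelia that takes part in volume regulation, was at 6.63, 5.73 and 6.41 CPM in control libraries, 23.6, 24.8 and 22.7 CPM with shAKR1B1 and 12.5, 14 and 11.6 CPM with shSORD. No group overlapped another, and KCNK5 rose 3.79-fold (log2 fold change 1.92, SE 0.089, adjusted p = 2.09e-10) and 2.03-fold (1.02, SE 0.0915, adjusted p = 3.06e-07). KCNK1 (TWIK-1), the highest two-pore transcript of control cells, was at 12.9, 12.5 and 12.1 CPM there, 26.8, 23.1 and 24.8 CPM with shAKR1B1 and 24.9, 22.1 and 24.2 CPM with shSORD. Every knockdown library lay above the controls, and KCNK1 rose 1.99-fold (log2 fold change 0.99, SE 0.0766, adjusted p = 5.1e-08) and 1.89-fold (0.92, SE 0.0766, adjusted p = 1.45e-07). The direct comparison of the knockdowns gave 0.07 (SE 0.0731, adjusted p = 0.523). KCNK6 (TWIK-2) went from 3.41 ± 0.0963 CPM to 6.74 ± 0.513 and 4.73 ± 0.337 (log2 fold changes 0.98 and 0.47, adjusted p = 1.43e-06 and 0.00173). KCNK3 (TASK-1), an acid-sensitive leak channel, rose less, from 11.7 ± 1.11 CPM to 14 ± 0.753 and 14.2 ± 0.988 (0.26 and 0.28, adjusted p = 0.0185 and 0.0128). Those KCNK3 calls ended without control replicate 3 (adjusted p = 0.097 and 0.0758), and with shAKR1B1 also without shAKR1B1 replicate 3 (0.0787). KCNK15 (TASK-5) was the exception, at 14, 14 and 11 counts in the control, 7, 7 and 4 in the shAKR1B1 and 9, 12 and 10 in the shSORD libraries. All shAKR1B1 libraries lay below the controls (log2 fold change -1.13, SE 0.376, adjusted p = 0.0181), and at -0.41 with shSORD (adjusted p = 0.318). The fall of KCNK15 was lost on dropping control replicate 1 or 2 (0.0583 and 0.0539) or shAKR1B1 replicate 3 (0.0921), and with DESeq2 (0.102). The exons of KCNK15 overlap on the opposite strand those of RIMS4 and KCNK15-AS1, both with more counts, so it is uncertain.

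Voltage-gated channels. Of 24 tested genes, 7 rose and 11 fell with shAKR1B1, and 7 rose and 10 fell with shSORD. The shares over all genes tested were 27.8% up and 29.6% down with shAKR1B1, and 27.5% up and 29% down with shSORD. Within the class the silent modifier genes, whose subunits carry no current alone but join Kv2 subunits in mixed channels, fell in 2 of 5 cases with shAKR1B1 and 4 of 5 with shSORD. KCNV1 (Kv8.1) was at 7.73, 6.92 and 7.94 CPM in control libraries, 2.05, 1.92 and 2.09 CPM with shAKR1B1 and 0.88, 0.658 and 1.08 CPM with shSORD. The groups did not overlap, and KCNV1 fell 3.72-fold (log2 fold change -1.90, SE 0.131, adjusted p = 1.56e-08) and 8.62-fold (-3.11, SE 0.149, adjusted p = 5.32e-10). KCNF1 (Kv5.1) was at 5.19, 4.75 and 5.95 CPM in control libraries, 2.57, 2.59 and 2.76 CPM with shAKR1B1 and 1.19, 1.05 and 1.35 CPM with shSORD. The groups again did not overlap, and KCNF1 fell 2.003-fold (-1.0021, SE 0.126, adjusted p = 8.3e-06) and 4.42-fold (-2.14, SE 0.141, adjusted p = 1.39e-08). KCNG3 (Kv6.3) was at 1.13, 1.01 and 1.35 CPM in control libraries, 0.919, 0.814 and 0.974 CPM with shAKR1B1 and 0.389, 0.366 and 0.527 CPM with shSORD. KCNG3 fell 2.72-fold with shSORD (-1.44, SE 0.228, adjusted p = 8.05e-05) and did not pass with shAKR1B1 (-0.37, adjusted p = 0.131). For these 3 genes the shSORD libraries lay below the shAKR1B1 libraries, and the direct comparison passed for each (log2 fold change of shAKR1B1 against shSORD 1.21, 1.14 and 1.07, adjusted p = 8.39e-05, 4.23e-05 and 0.00295). KCNG1 (Kv6.1), at 7.17 ± 0.514 CPM in control cells, was at -0.20 with shAKR1B1 (adjusted p = 0.135) and fell by 0.37 on the log2 scale with shSORD (adjusted p = 0.00994). That KCNG1 call ended without control replicate 1 (0.0501) or shSORD replicate 1 (0.0596). KCNS3 (Kv9.3) went the other way, from 7.38 ± 0.999 CPM to 11.6 ± 0.264 and 9.39 ± 0.0569 (log2 fold changes 0.65 and 0.35, adjusted p = 2.7e-05 and 0.0054).

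**Figure D4:**
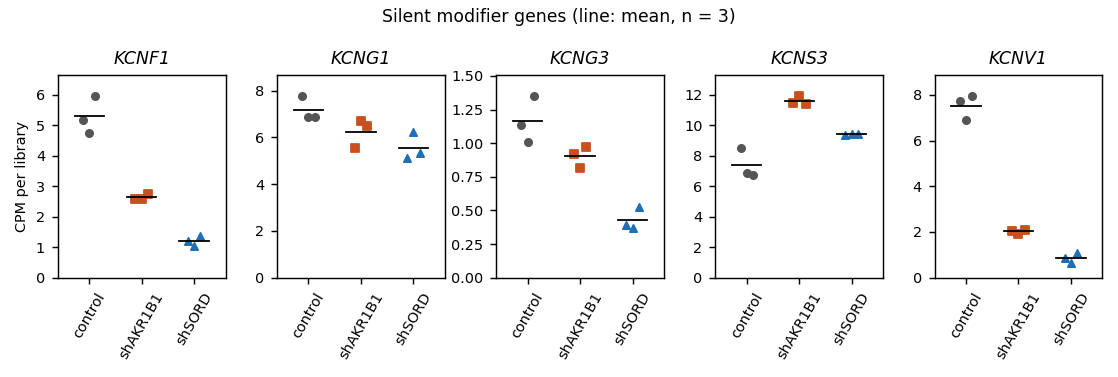
CPM in each library (y axes from 0) of 5 silent modifier genes in the 3 groups (x axis); short lines are means, n = 3. KCNF1 (1.05 to 1.35), KCNG3 (0.366 to 0.527) and KCNV1 (0.658 to 1.08) are lowest with shSORD, and KCNS3 is lowest in control cells.

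Among the EAG-type genes, KCNH1 (EAG1), a neuronal channel often found in tumours, was at 2.57, 3.08 and 2.6 CPM in control libraries, 0.306, 0.148 and 0.325 CPM with shAKR1B1 and 1.66, 2.05 and 2.33 CPM with shSORD. It fell 10.5-fold with shAKR1B1 to 6 to 14 counts per library (log2 fold change -3.40, SE 0.244, adjusted p = 2.34e-08) and 1.36-fold with shSORD (-0.45, SE 0.169, adjusted p = 0.0353). The direct difference was 7.72-fold (log2 fold change -2.95, SE 0.254, adjusted p = 5.36e-07). All 3 shAKR1B1 libraries lay below every other library. With shSORD the KCNH1 call was lost on dropping control replicate 2 or 3 (adjusted p = 0.141 and 0.059) or shSORD replicate 1 (0.158), and with DESeq2 (0.1), upper-quartile scaling (0.0728) and the stricter filter (0.0502). KCNH3, of the ELK branch, fell from 8.8 ± 0.753 CPM to 5.05 ± 0.185 and 6.37 ± 0.373 (-0.80 and -0.46, adjusted p = 5.03e-06 and 0.000637). Its exons overlap on the opposite strand those of MCRS1, which had 2869 to 2977 counts in control, 1982 to 2843 in shAKR1B1 and 2550 to 3065 in shSORD libraries. KCNH3 had at most 350 counts in a library, so it is uncertain if strand was not used in counting. KCNH4, of the same branch, was at 21, 25 and 26 counts in the control, 12, 8 and 10 in the shAKR1B1 and 13, 16 and 18 in the shSORD libraries. All knockdown libraries lay below the controls, and KCNH4 fell 2.44-fold with shAKR1B1 (-1.28, SE 0.292, adjusted p = 0.00161) and by 0.69 on the log2 scale with shSORD (adjusted p = 0.0389). The KCNH4 call with shSORD ended without control replicate 1, 2 or 3 (adjusted p = 0.0549, 0.0953 and 0.106), shAKR1B1 replicate 2 (0.0512), shSORD replicate 1 (0.126) or shSORD replicate 2 (0.0771), and with DESeq2 (0.184), upper-quartile scaling (0.0639), no expression filter (0.077) and with the replicate number as a block (0.0536). KCNH2, the cardiac repolarizing channel hERG, did not pass (1.61 ± 0.16, 1.47 ± 0.0248 and 1.29 ± 0.168 CPM, adjusted p = 0.504 and 0.114).

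The Kv7 genes, slow channels that damp excitability in neurons and support secretion in epithelia, did not move as 1 group. KCNQ5 was at 0.967, 0.663 and 0.611 CPM in control libraries and at 2.02, 1.58 and 2.06 CPM with shAKR1B1, above every control, a rise of 2.53-fold (1.34, SE 0.225, adjusted p = 0.000131). With shSORD KCNQ5 was at 0.906, 0.658 and 1.1 CPM (0.26, adjusted p = 0.407), and the direct difference passed (1.08, adjusted p = 0.00138). KCNQ3 had 17, 24 and 19 counts in the control, 4, 5 and 14 in the shAKR1B1 and 23, 12 and 17 in the shSORD libraries. It fell with shAKR1B1 by 1.41 on the log2 scale (SE 0.4, adjusted p = 0.00732), and by 2.08 without shAKR1B1 replicate 3, the highest of its group. KCNQ1, the Kv7 pore of airway and cardiac cells, did not pass (0.917 ± 0.229, 0.842 ± 0.0903 and 0.682 ± 0.198 CPM, adjusted p = 0.662 and 0.158). Its locus holds the antisense KCNQ1OT1, with 160 to 163 counts in control, 301 to 391 in shAKR1B1 and 318 to 332 in shSORD libraries. KCNQ1 had at most 44 counts, and the reads of the pair cannot be told apart if strand was not used in counting.

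The single-pass KCNE subunits moved apart. KCNE4, which inhibits Kv1 and Kv7 channels, was at 2.51, 2.07 and 2.11 CPM in control libraries, 0.214, 0.197 and 0.139 CPM with shAKR1B1 and 0.492, 0.585 and 0.276 CPM with shSORD. It fell 12.1-fold to 6 to 8 counts per library (log2 fold change -3.60, SE 0.273, adjusted p = 4.08e-08) and 4.91-fold to 11 to 24 counts (-2.29, SE 0.227, adjusted p = 8.54e-07). KCNE3, which holds KCNQ1 open in secreting epithelia, was at 0.138, 0.318 and 0.28 CPM in control libraries, 0.643, 0.691 and 0.719 CPM with shAKR1B1 and 0.932, 0.975 and 0.878 CPM with shSORD. It rose 2.76-fold (1.46, SE 0.29, adjusted p = 0.000545) and 3.72-fold (1.8967, SE 0.274, adjusted p = 3.59e-05) from 5 to 12 counts per control library. All knockdown libraries lay above the controls for KCNE3 and below them for KCNE4.

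The cytosolic Kv beta subunits belong to the aldo-keto reductase superfamily, like AKR1B1, and bind Kv1 channels, whose genes were below the filter here. KCNAB2 was at 28, 26.6 and 28.5 CPM in control libraries, 23.6, 23.6 and 22.1 CPM with shAKR1B1 and 24.1, 23.5 and 21 CPM with shSORD, and fell 1.2-fold and 1.21-fold (log2 fold changes -0.26, SE 0.0695, adjusted p = 0.00464, and -0.28, SE 0.0694, adjusted p = 0.00335), with all knockdown libraries below the controls. KCNAB3 was at 3.45, 4.38 and 3.33 CPM in control libraries, 1.87, 2.05 and 2.55 CPM with shAKR1B1 and 5.1, 5.58 and 4.67 CPM with shSORD. KCNAB3 fell 1.71-fold with shAKR1B1 (-0.77, SE 0.152, adjusted p = 0.0005) and rose 1.38-fold with shSORD (0.46, SE 0.136, adjusted p = 0.00981). The groups did not overlap, and the direct difference was 2.35-fold (log2 fold change -1.23, SE 0.146, adjusted p = 1.27e-05). Exons of KCNAB2 overlap those of NPHP4 on the opposite strand.

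KCND1, the Kv4 pore gene, was at 4.65 ± 0.307 CPM in control cells and 4.16 ± 0.543 with shAKR1B1 (log2 fold change -0.15, adjusted p = 0.287), and rose to 8.11 ± 0.62 CPM with shSORD (0.80, adjusted p = 2.19e-05). KCNIP2, a calcium-binding subunit that brings Kv4 channels to the surface, was at 1.38, 1.27 and 1.3 CPM in control libraries, 1.9, 2.15 and 2.3 CPM with shAKR1B1 and 3.08, 2.1 and 2.76 CPM with shSORD. Every knockdown library lay above the controls, and it rose 1.61-fold (0.69, SE 0.173, adjusted p = 0.00329) and 2.004-fold (1.00, SE 0.167, adjusted p = 0.000132). KCNIP3, the Kv4 subunit also known as the transcriptional repressor DREAM, fell from 2.57 ± 0.43 to 1.29 ± 0.124 CPM with shAKR1B1 (-0.99, adjusted p = 0.000284) and was at 2.46 ± 0.454 CPM with shSORD (-0.06, adjusted p = 0.772). The Kv4 subunits DPP6 and DPP10, which are not KCN genes, had no counts. Of the Kv3 genes for fast repolarization, KCNC4 rose from 5.79 ± 0.161 CPM to 7.75 ± 0.518 and 8.02 ± 0.676 (0.42 and 0.47, adjusted p = 0.0015 and 0.000661).

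Between the knockdowns, 14 of the 44 tested channel genes were higher and 10 lower with shAKR1B1 than with shSORD (54.5% called, against 30.7% of all genes tested, 15.5% higher and 15.1% lower), and 12 differed at least 2-fold (27.3% against 5.19%; 7 higher, against 2.47%, and 5 lower, against 2.72%). Higher by that much with shAKR1B1 were KCNJ2 (log2 fold change 1.55), KCNJ15 (1.53, adjusted p = 0.000231), KCNT2 (1.48, adjusted p = 2.98e-05), KCNV1, KCNF1, KCNQ5 and KCNG3. Lower were KCNH1 (-2.95), KCNMA1 (-2.71), KCNE4 (-1.31, adjusted p = 0.0125), KCNAB3 (-1.23) and KCNQ3 (-1.13, adjusted p = 0.0493). KCNK5 and KCNJ16 were higher with shAKR1B1 by 0.90 and 0.63 on the log2 scale (adjusted p = 9.81e-07 and 3.17e-05). The difference in KCNE4 did not pass without shAKR1B1 replicate 3 (adjusted p = 0.0625) or shSORD replicate 2 (0.0527). That in KCNQ3 ended under 7 of the 9 removals of a library, which were those of control replicates 1, 2 and 3 (0.064, 0.0598 and 0.0623), shAKR1B1 replicates 1 and 2 (0.157 and 0.176) and shSORD replicates 1 and 3 (0.19 and 0.0574). It also ended with DESeq2 (0.0942) and in a fit of the 2 groups alone (0.0754), and without shAKR1B1 replicate 3 its value was -1.80. KCNN4 was lower with shAKR1B1 by a small step (-0.23, adjusted p = 0.0393) that did not pass in 8 of those 9 fits (0.0577 to 0.146) and passed without shSORD replicate 3.

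Other genes of potassium handling, from a list of 43 pumps, cotransporters, channel partners and anchors, were measured alongside. Of 26 tested, 14 rose and 6 fell with shAKR1B1 (against 27.8% and 29.6% of all genes), and 13 rose and 2 fell with shSORD (against 27.5% and 29%). ATP1B1, a subunit of the pump that builds the potassium gradient, rose 1.25-fold and 1.16-fold from 298.8 ± 5.89 CPM. The sodium-potassium-chloride cotransporter SLC12A2 rose 1.16-fold with shAKR1B1 (adjusted p = 0.0361) and fell 1.87-fold with shSORD, from 201 ± 1.67 to 107.3 ± 16 CPM (adjusted p = 4.67e-07). Larger changes were seen in other genes of the list. ANK3, the membrane anchor ankyrin-G, rose 15.3-fold and 9.37-fold, the kinase SGK1 2.03-fold and 2.26-fold and the pacemaker channel HCN4 2.5-fold and 2.46-fold. AKAP9, which anchors kinase to KCNQ1, rose 2.16-fold with shAKR1B1 and 1.65-fold with shSORD. ANO1, a calcium-activated chloride channel, fell 6.82-fold with shAKR1B1 from 0.662 ± 0.0711 CPM (adjusted p = 5.93e-05) and did not pass with shSORD (adjusted p = 0.589).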

How the data were processed

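RNA was measured in 9 libraries of 3 groups. The values are raw read counts per Ensembl gene as the authors deposited them. Build GRCh37 and the programs STAR 2.5.2b, featureCounts 1.5.1, cutadapt 1.9.1 and DESeq2 1.12.3 appear in the list per the submitters' processing notes. How strand and multi-mapping reads were treated, and from which annotation release, is not given in the sources used here. Symbols matched 51996 of 57905 IDs, and gene types and exon lengths came from GENCODE 29, on another build.

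Counts were tested in R 4.3.3 with edgeR 4.0.16. Libraries were scaled by TMM, 16916 genes passed the package's expression filter by group, and the model was a quasi-likelihood fit of all 9 libraries with 1 mean per group, and Benjamini-Hochberg adjustment over all genes tested within each comparison. A gene was called at adjusted p under 0.05, and "rose" and "fell" refer to calls. SE is the log2 fold change over the square root of F. The fit was tested on simulated data. The common biological coefficient of variation was 6.59%. Genes given with each library's value were those called and changed at least 2-fold in a knockdown, and the 3 highest per kilobase in control cells. Some genes are included in the counts and sums but are not reported here by name. Members and lists were chosen with earlier results of these data known. Deviations from the group means of same-numbered libraries correlated at 0.102 to 0.193 between the knockdowns, which meets the criterion for pairing (over 0.1 in every pair), and at -0.0285 to 0.0314 between control and knockdown libraries, which does not. No 2 libraries were copies. Chi-square per degree of freedom was 2.43 to 5.99 between control libraries, 3.44 to 6.45 between shAKR1B1 and 13.07 to 27.47 between shSORD libraries. The shSORD libraries thus scattered most, while the fit shared the estimate of spread over all groups.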

Additional observations from a re-analysis of the deposited data

Results flagged for a closer look

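KCNAB3 and KCNJ2 were called in opposite directions in the 2 knockdowns, and the difference itself passed the edgeR test. KCNAB3 was lower with shAKR1B1 than with shSORD (log2 fold change -1.23, adjusted p = 1.27e-05), and all 3 shAKR1B1 libraries lay below and all 3 shSORD libraries above the control libraries. KCNJ2 was higher with shAKR1B1 than with shSORD (log2 fold change 1.55, adjusted p = 1.63e-07), with the shAKR1B1 libraries above and the shSORD libraries below the controls. Both comparisons share the control libraries.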

How the results depend on the processing

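The count of channel genes called with shAKR1B1 was 21 in place of 33 with the stricter filter of a mean of 50 counts, which tested only 26 of the 44, and 20 of the 33 called genes were tested there and were called again. With the same filter the count was 22 in place of 30 with shSORD, where 23 of the 30 were tested. Between the knockdowns it was 16 in place of 24, where 16 of the 24 were tested. Under the other alternatives the 3 counts of channel genes stayed within 1.5 times. Leaving out 1 library gave 30 to 35 calls with shAKR1B1, 26 to 30 with shSORD and 20 to 23 between the knockdowns. Over all genes it gave 8481 to 10712, 8383 to 10127 and 3840 to 6731. Same-numbered libraries of different groups had deviations that correlated at -0.0285 to 0.0314 where 1 was a control, and at 0.102 to 0.193 between the knockdowns, and 7 of 9 libraries correlated best with their own number. The replicate block gave 32, 29 and 24 channel gene calls and ended the call of KCNH4 with shSORD (adjusted p = 0.0536), and between the knockdowns it called the same 24 genes. No called channel gene changed direction against control in the alternatives run. Uncalled values near 0 changed sign: KCNIP3 with shSORD to 0.0117 with upper-quartile scaling, and others when 1 library was left out. KCNQ1 with shAKR1B1 ranged from -0.2799 to 0.0734 then and, with shSORD, KCNIP3 from -0.1981 to 0.0828, KCNN1 from -0.0895 to 0.1931 and KCNJ12 from -0.0847 to 0.3084. Over the single-gene values reported, 62 lost a call and 12 gained one under an alternative. With the longest coding transcript as length, chosen after seeing the data, the shAKR1B1 to control ratio of summed level was 2.54 in place of 2.28 for inward rectifiers and 0.44 in place of 0.487 for calcium-activated genes. For voltage-gated genes it was 0.828 in place of 0.809, and for two-pore genes 2.08 in place of 2.11. The shSORD to control ratio was 1.57 in place of 1.39 for inward rectifiers and 1.72 in place of 1.67 for two-pore genes. It was 0.874 in place of 0.836 for voltage-gated and 0.524 in place of 0.54 for calcium-activated genes. Genes under about 20 counts per library are limited by depth.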
